A study of Mus musculus with 6 samples.

Results

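*Tmem119*, *P2ry12*, *P2ry13*, *Gpr34*, *Olfml3*, *Fcrls* and *Sall1* are used as markers of microglia, the macrophages of the brain. These 7 genes were chosen by symbol, with the difference between sEH-/- and wild-type macrophages in these same libraries already known. Their genotype differences are therefore given as a description, without a test. Of the 7 genes, 6 had a row among the 19309 genes of the count table, and *Sall1* was not analysed here. Only 4 of the 6, namely *Tmem119*, *Olfml3*, *P2ry13* and *P2ry12*, passed the filter on low values, a mean above 5 counts. *Fcrls* and *Gpr34* did not, so the genes that passed do not stand for the whole group.

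The libraries came from the study of the soluble epoxide hydrolase (sEH), the enzyme encoded by *Ephx2* that turns epoxides of polyunsaturated fatty acids into diols, and of its link with TGF-β signaling. Bulk RNA was sequenced from macrophages of 3 wild-type (C57BL/6N) and 3 sEH-/- mice, with a separate library for each mouse. The sEH-/- animals lacked the enzyme constitutively and not in macrophages alone, so that an effect in the macrophage and an effect on its precursors cannot be told apart. Monocytes were taken from the bone marrow of animals aged 8 to 10 weeks and cultured for 7 days with 15 ng/mL of M-CSF and as much GM-CSF. Cells of both genotypes then received LPS at 10 ng/mL with IFN-γ at 1 ng/mL, which gives M1 macrophages, and afterward to TGF-β1 (10 ng/mL), which gives M2c macrophages. The labels state 24 h for the M1 step and 48 h for TGF-β1, whereas the methods state 12 h and either 24 h or 48 h. All 6 libraries received TGF-β1, so their dependence on TGF-β cannot be assessed in these data. The cells were cultured macrophages from bone marrow and not microglia.

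In the brain, TGF-β made by microglia and their neighbors binds the receptors Tgfbr2 and Tgfbr1 on microglia, which activate Smad proteins. Loss of this signal strips microglia of the so-called homeostatic genes, to which all of the genes described here belong, and Sall1 is a transcription factor that helps to keep them on. P2ry12 and P2ry13 are receptors for ADP, and P2ry12 guides microglial processes toward damaged cells and also serves platelets in aggregation. Gpr34 is a receptor for lysophosphatidylserine, Tmem119 is a transmembrane protein, Olfml3 is a secreted olfactomedin-like glycoprotein and Fcrls belongs to the Fc receptor-like scavenger proteins.

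Library totals lay between 4400197 and 6096440 counts, and wild-type replicate 2 was the largest. *Ephx2* itself, which checks the genotype labels, was counted 4, 2 and 1 times in sEH-/- and 26, 49 and 57 times in wild-type cells. CPM values are counts scaled to TMM-normalized library sizes, and a positive log2 fold change is higher in sEH-/- macrophages. A gene was called when edgeR's adjusted p was below 0.05 and the change exceeded 1.5-fold in either direction. Of 13785 tested genes, 208 (1.51%) were called higher and 152 (1.10%) lower in sEH-/- cells. In 11.8% of tested genes all sEH-/- libraries lay above all wild-type libraries, and in 14.5% all lay below. The macrophage markers *Adgre1*, *Csf1r*, *Cd68*, *Itgam*, *Fcgr1*, *Mertk*, *Mrc1*, *Lyz2*, *Aif1* and *Cd14* were present in every library, with a summed level of 2181 to 2706 CPM in sEH-/- and 1937 to 2425 CPM in wild-type cells. In bulk RNA, more cells that express a gene and more RNA per cell cannot be told apart.

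*Tmem119* was the most abundant of these genes. It lies on the minus strand of mm10 at chr5:113793729-113800516 (ENSMUSG00000054675). The sEH-/- libraries held 87.6, 89.0 and 82.1 CPM and the wild-type libraries 52.1, 43.0 and 48.4 CPM. Every sEH-/- library lay above every wild-type library, and the 3 libraries of a genotype were close together. The sEH-/- mean was 86.2 ± 3.65 CPM and the wild-type mean 47.8 ± 4.58 CPM (SD, n = 3 mice each), a log2 fold change of 0.86 (SE 0.089). With each library left out in turn this value stayed between 0.78 and 0.92.

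*Olfml3* showed a wider spread. It lies on the minus strand at chr3:103722222-103738001 (ENSMUSG00000027848) and was counted at 66.9, 108 and 62.6 CPM in sEH-/- libraries. The wild-type libraries held 47.9, 28.4 and 32.6 CPM. Again no wild-type library reached the lowest sEH-/- library, although sEH-/- replicate 2 stood far above the other two. The means were 79.2 ± 25.2 CPM (SD, n = 3) and 36.3 ± 10.3 CPM (SD, n = 3), with a log2 fold change of 1.14 (SE 0.23). It was 0.87 without sEH-/- replicate 2 and 1.38 without wild-type replicate 1. The mean over the 6 libraries was 0.048 counts per exonic base for *Olfml3* and 0.15 for *Tmem119*.

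The ADP receptor genes *P2ry13* and *P2ry12* had the largest fold differences and far fewer counts. *P2ry13* (ENSMUSG00000036362) is on the minus strand at chr3:59207892-59210882, and *P2ry12* (ENSMUSG00000036353) follows on the same strand at chr3:59216272-59262871, with 5389 bases between them. *P2ry13* had 72, 126 and 67 counts in sEH-/- cells and 37, 11 and 33 in wild-type cells, which correspond to 12.3, 25.4 and 15.5 CPM against 8.13, 1.78 and 5.92 CPM. The lowest sEH-/- library was 1.51 times the highest wild-type library. The means were 17.8 ± 6.83 CPM (SD, n = 3) and 5.28 ± 3.22 CPM (SD, n = 3), with a log2 fold change of 1.79 (SE 0.43).

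*P2ry12* had 34, 81 and 30 counts in sEH-/- cells against 26, 9 and 12 in wild-type cells. This corresponds to 5.82, 16.3 and 6.96 CPM against 5.72, 1.46 and 2.15 CPM. The genotypes did not overlap, but only just: the exact Poisson 95% interval of sEH-/- replicate 1 was 4.03 to 8.13 CPM and that of wild-type replicate 1 was 3.73 to 8.38 CPM. Such intervals cover counting error only. The means were 9.71 ± 5.78 CPM (SD, n = 3) and 3.11 ± 2.28 CPM (SD, n = 3), with a log2 fold change of 1.70 (SE 0.52).

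Both values rested on few counts and moved with single libraries. The log2 fold change of *P2ry13* ranged from 1.34 without wild-type replicate 2 to 2.22 without wild-type replicate 1. That of *P2ry12* was 1.11 without sEH-/- replicate 2 and 2.42 without wild-type replicate 1. In all 4 tested genes every sEH-/- library lay above every wild-type library, beside 11.8% of all tested genes. The genes were chosen on this comparison, so nothing is read from this share.

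**Figure D1:**
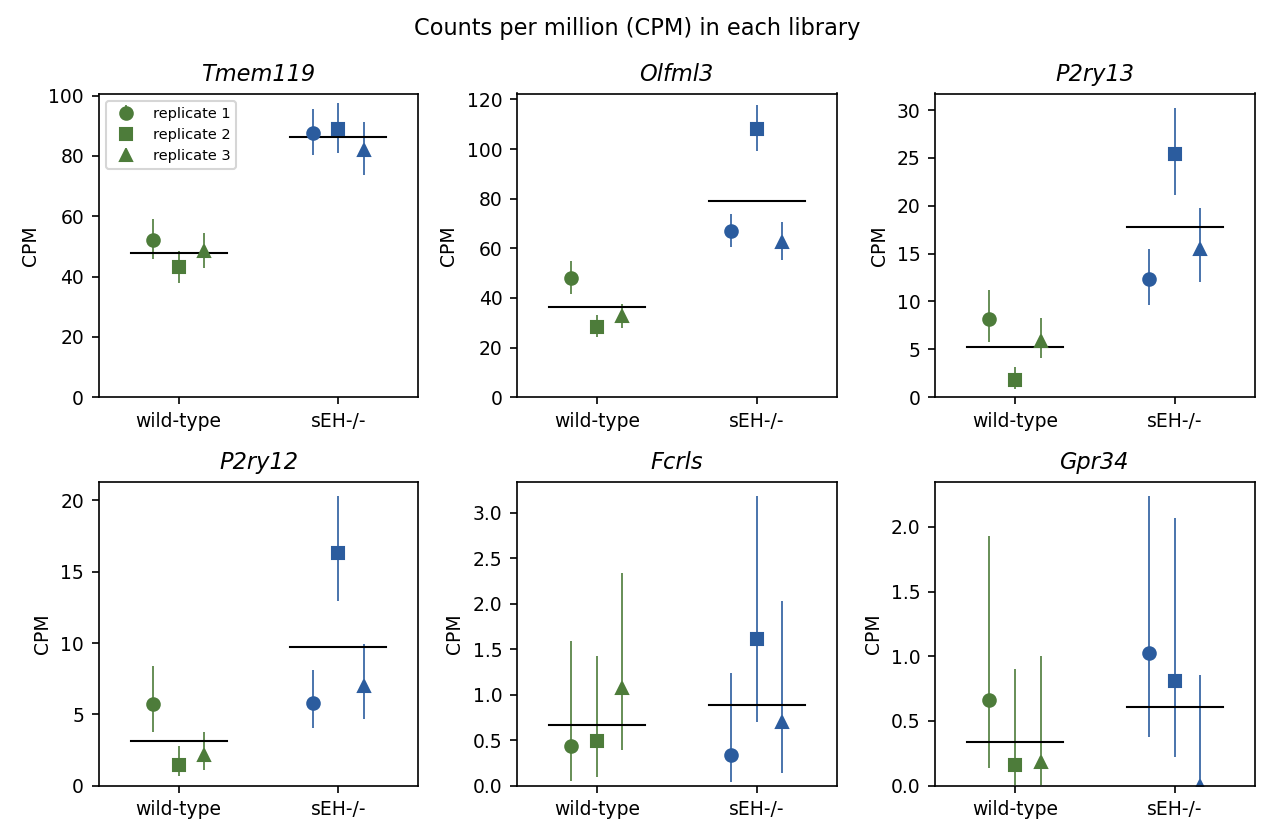
CPM of the 6 genes with values in each wild-type (green) and sEH-/- (blue) library, with the marker shape giving the replicate number, thin lines the exact Poisson 95% interval and horizontal bars the mean of 3 libraries. The sEH-/- libraries lie above the wild-type libraries for *Tmem119*, *Olfml3*, *P2ry13* and, by the smallest margin, *P2ry12*, whereas the genotypes overlap for *Fcrls* and *Gpr34*.

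*Fcrls* and *Gpr34* were close to the limit of detection. *Fcrls* (ENSMUSG00000015852, minus strand, chr3:87250758-87263738) had 2, 8 and 3 counts in sEH-/- libraries and 2, 3 and 6 in wild-type libraries. The genotypes overlapped, and the ratio of the summed counts, scaled for library size, was 1.27 with an exact 95% interval from 0.527 to 3.14. *Gpr34* (ENSMUSG00000040229, plus strand, chrX:13632089-13640858) had 6, 4 and 0 counts in sEH-/- libraries and 3, 1 and 1 in wild-type libraries. The 0 counts of sEH-/- replicate 3 allow a level of up to 0.70 CPM when the limit is taken as 3 counts, and the exact Poisson 95% interval of this library ends at 0.86 CPM. The ratio for *Gpr34* was 2.16 with an interval from 0.671 to 8.04. The intervals of these ratios cover counting error only, not the spread between mice. A genotype difference was not detectable for either gene at this depth, and both intervals also hold the fold differences of *Tmem119* and *Olfml3*.

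Levels of different genes can be compared only per length. Per kilobase of exon, wild-type macrophages held 20.7 ± 1.98 CPM (SD, n = 3) of *Tmem119*, a level above that of 71.5% of the 13778 tested genes with a known length. *Olfml3* followed with 5.89 ± 1.67 CPM per kilobase, above 35.3% of genes. *P2ry13* had 2.09 ± 1.27 and *P2ry12* 1.22 ± 0.90 CPM per kilobase, above 19.3% and 12.9% of genes. *Fcrls*, at 0.29 ± 0.15, and *Gpr34*, at 0.16 ± 0.14 CPM per kilobase, ranked below nearly all tested genes. The ranges of *P2ry13* and *P2ry12* overlapped over the wild-type libraries, as did those of *Fcrls* and *Gpr34*, whereas the other neighbors in this order did not overlap. In sEH-/- macrophages the order was the same, with means of 37.2, 12.9, 7.03, 3.81, 0.38 and 0.29 CPM per kilobase. In wild-type macrophages only *Tmem119* of these genes was above the middle of the tested genes.

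The 4 tested genes shared an order of libraries within each genotype. In each of them sEH-/- replicate 2 was the highest sEH-/- library, wild-type replicate 1 the highest and wild-type replicate 2 the lowest wild-type library. The same order was found in 9.19% of all tested genes and in 29% of the 1629 genes whose sEH-/- libraries all lay above the wild-type libraries. For *Tmem119* the order was within counting error, since the exact Poisson 95% intervals of sEH-/- replicates 1 and 2 and those of wild-type replicates 1 and 3 overlapped. The size of the spread differed between genes. The highest sEH-/- library was 1.08 times the lowest for *Tmem119*, 1.73 times for *Olfml3*, 2.06 times for *P2ry13* and 2.81 times for *P2ry12*. Among the wild-type libraries the corresponding ratios were 1.21, 1.69, 4.56 and 3.91. Relative to the wild-type mean of the log2 values, wild-type replicate 1 was at 1.10 and sEH-/- replicate 1 at 1.12 for *P2ry12*, whereas the same libraries were at 0.13 and 0.88 for *Tmem119*. Wild-type replicate 1 thus lay beside the lowest sEH-/- library for *P2ry12* but far from it for *Tmem119*.

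**Figure D2:**
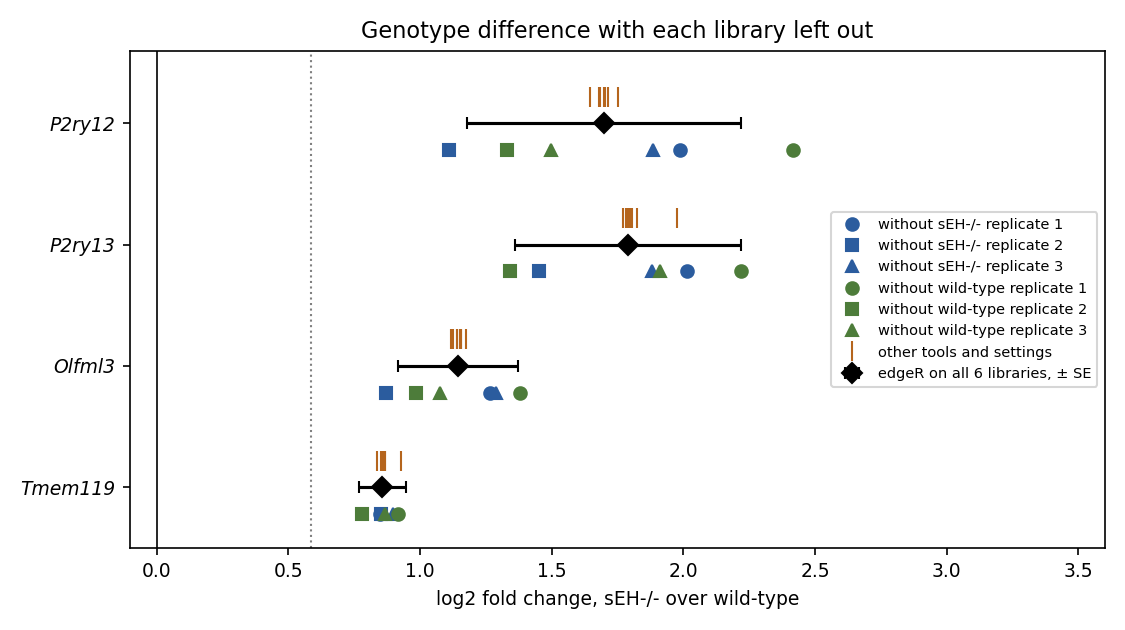
Log2 fold change (sEH-/- over wild-type, x axis) of the 4 tested genes with all 6 libraries (black, ± SE), with each library left out (colored markers) and with other tools and settings (ticks). The dotted line marks a 1.5-fold difference, and the values of *Tmem119* (0.78 to 0.92 with a library left out) are the closest together, whereas those of *P2ry12* range from 1.11 to 2.42.

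*P2ry12* and *P2ry13* sit in a cluster of purinergic receptor genes, and both lie within *Med12l*, which is transcribed from the opposite strand. *Med12l* shares 9 exonic bases with *P2ry12* and none with *P2ry13*, and the reads were counted by strand. It was counted 28, 16 and 20 times in sEH-/- against 10, 10 and 15 times in wild-type cells, and was not called (0.96 on the log2 scale, SE 0.32, adjusted p = 0.11 with edgeR). Within the pair of receptors, *P2ry12* took 35.4% of the summed counts in sEH-/- libraries (exact binomial 95% interval 30.7% to 40.2%) and 36.7% in wild-type libraries (28.4% to 45.7%). Both intervals cover counting error only, not the spread between mice. Library by library the share of *P2ry12* was 32.1%, 39.1% and 30.9% for sEH-/- against 41.3%, 45.0% and 26.7% for wild-type cells. The balance between the receptors therefore lay within the same range in both genotypes, while the level of both differed.

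The next gene of the cluster, *P2ry14*, a receptor for UDP-glucose, was far more abundant, with a mean of 128 ± 13.1 CPM in sEH-/- against 109 ± 8.89 CPM in wild-type cells (SD, n = 3 each). At a log2 fold change of 0.23 (SE 0.093) and an adjusted p of 0.18 with edgeR it was not called. *Gpr171*, of the same cluster, was at -0.24 (SE 0.22, adjusted p = 0.56). *P2ry1*, a further ADP receptor gene, fell in sEH-/- cells. It was counted 121, 95 and 95 times in sEH-/- cells against 137, 239 and 200 times in wild-type cells, and fell by 0.77 on the log2 scale (SE 0.13, adjusted p = 0.021 with edgeR). This call was lost when sEH-/- replicate 2, or either of wild-type replicates 2 and 3, was left out. The ADP receptor genes thus did not move in the same direction. The nucleotide receptor genes *P2ry2* (-0.28, SE 0.095, adjusted p = 0.11) and *P2ry6* (0.079, SE 0.090, adjusted p = 0.65) and the lysophospholipid receptor gene *P2ry10b* (-0.013, SE 0.095, adjusted p = 0.95) were not called. Neither were *Fcrl1* (-0.80, SE 0.36, adjusted p = 0.22), *Fcrlb* (0.14, SE 0.24, adjusted p = 0.77), *Sall2* (0.020, SE 0.14, adjusted p = 0.95) and *Olfml2b* (0.29, SE 0.25, adjusted p = 0.54). Of the 10 tested relatives, 1 was called lower and none higher with edgeR, DESeq2 and limma-voom alike. Of all tested genes, edgeR called 1.10% lower and 1.51% higher. At an unadjusted edgeR p below 0.05, 1 relative was higher and 2 were lower, beside 11.1% and 12.2% of all tested genes.

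**Figure D3:**
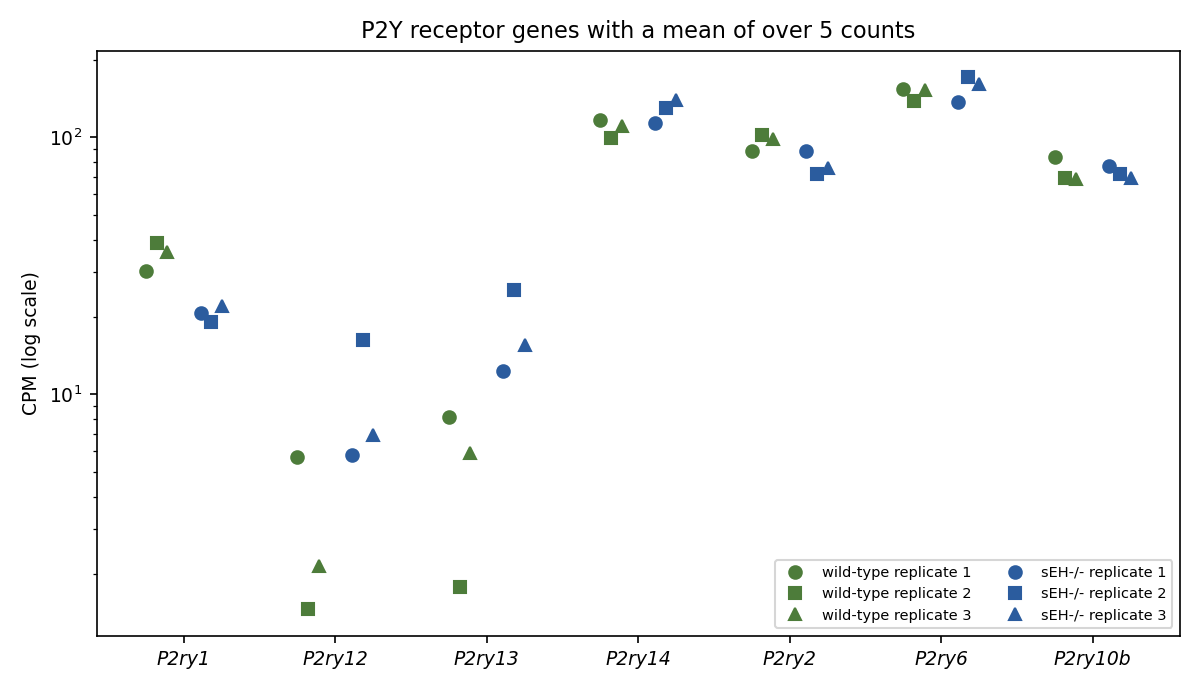
CPM (log scale) of the P2Y receptor genes with a mean of over 5 counts in each wild-type (green) and sEH-/- (blue) library, with the marker shape giving the replicate number. *P2ry12* and *P2ry13* are at the bottom with all sEH-/- libraries above the wild-type libraries, *P2ry1* has the opposite order, and the genotypes overlap for *P2ry14*, *P2ry2*, *P2ry6* and *P2ry10b*.

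The promoters of *P2ry13*, *P2ry12* and *Olfml3*, the tested genes of the group with an entry in the RefSeq table, are shown for the 250 bases before the RefSeq start (GRCm38.p6, the same assembly as mm10), read 5′ to 3′ on the minus strand. *P2ry13* covers chr3:59210883-59211132, *P2ry12* chr3:59262986-59263235 and *Olfml3* chr3:103738002-103738251. Capitals mark a match on either strand to 1 of 4 motifs, namely CAGAC, which Smad proteins bind, its palindrome GTCTAGAC, the PU.1 core GAGGAA and the AP-1 site TGANTCA.
P2ry13: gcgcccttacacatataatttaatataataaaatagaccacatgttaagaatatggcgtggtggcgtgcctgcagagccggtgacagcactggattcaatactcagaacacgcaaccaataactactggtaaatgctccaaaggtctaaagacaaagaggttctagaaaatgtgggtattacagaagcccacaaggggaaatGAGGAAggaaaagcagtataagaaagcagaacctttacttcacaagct
P2ry12: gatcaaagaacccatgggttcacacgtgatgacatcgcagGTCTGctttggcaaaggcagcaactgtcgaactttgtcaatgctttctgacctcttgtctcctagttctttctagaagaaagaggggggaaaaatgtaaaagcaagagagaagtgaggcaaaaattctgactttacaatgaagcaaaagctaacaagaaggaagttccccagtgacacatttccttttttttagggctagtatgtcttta
Olfml3: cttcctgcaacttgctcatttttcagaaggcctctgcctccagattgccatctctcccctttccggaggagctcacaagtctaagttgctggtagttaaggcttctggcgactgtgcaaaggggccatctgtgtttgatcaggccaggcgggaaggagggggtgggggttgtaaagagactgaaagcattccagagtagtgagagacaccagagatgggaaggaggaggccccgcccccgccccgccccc
The window of *P2ry13* holds 1 PU.1 core, which is 48 bases before the start and is also found in 23.3% of 32851 promoters of this length. The window of *P2ry12* holds 1 CAGAC on the other strand, 210 bases before the start, a motif found in 42.2% of promoters. The window of *Olfml3* holds none of the 4, and the palindrome and the AP-1 site, found in 0.167% and 6.75% of promoters, occur in none of these 3 windows. A match is a description of the sequence and not evidence of binding.

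The other genes next to this group were compared to see whether their surroundings moved as well. *Hipk1*, 1813 bases from *Olfml3* on the same strand, was at 0.15 (SE 0.095, adjusted p = 0.37 with edgeR), and *Atg4a-ps*, on the far side of *Olfml3*, was at 1.20 (SE 0.40, adjusted p = 0.11) with 5 to 18 counts per library. *Iscu* and *Selplg*, on either side of *Tmem119*, were at -0.080 (SE 0.082, adjusted p = 0.61) and 0.11 (SE 0.089, adjusted p = 0.52). *Cask*, within which *Gpr34* lies on the opposite strand, was at 0.025 (SE 0.085, adjusted p = 0.90), and *Cd5l* near *Fcrls* was at 0.68 (SE 0.37, adjusted p = 0.31). None of these neighbors was called. *Gpr82*, *Gm14506*, *Igsf10* and *Kirrel*, the remaining neighbors, had 0 to 7 counts per library and were not tested.

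Likeness to other genes was measured as the root mean square difference between log2 CPM values over the 6 libraries, each gene centered on its own mean, among the 11482 genes that averaged 20 counts or more. The genes nearest to *Tmem119* were *Rcsd1* (0.073), *Lrmp* (0.075) and *Gm39556* (0.078), and those nearest to *Olfml3* were *Sla* (0.090), *Clec5a* (0.14) and *Cysltr1* (0.14). *P2ry12* was nearest to *BC147527* (0.23), *Nxpe5* (0.24) and *Ifitm6* (0.31), and *P2ry13* to *BC147527* (0.25), *A130077B15Rik* (0.34) and *Ccl12* (0.40). *P2ry12* and *P2ry13* differed from each other by 0.40, with 2 genes nearer to *P2ry13* and 7 nearer to *P2ry12*. These profiles include the genotype difference on which the group was chosen, so that likeness within it is partly set by that choice. *Tmem119* differed by 0.30 from *Olfml3*, 0.79 from *P2ry12* and 0.84 from *P2ry13*. At least 820 genes were nearer to *Tmem119* than any of these 3 was.

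A list of 49 other microglia-enriched genes was examined next, of which 45 had a row and 42 were tested. Like all lists here, it was chosen with earlier results of these data known, so calls within the lists are given as a description. In sEH-/- cells 2 of the 42 were called higher and none lower with edgeR, where 1.51% and 1.10% of all tested genes were called. DESeq2 called 3 higher and none lower, limma-voom called 2 and none, and at an unadjusted edgeR p below 0.05 there were 13 higher and 5 lower, where 11.1% of all tested genes were higher and 12.2% lower at that threshold. The log2 fold change was above 0 for 33 genes and below 0 for 9, with a median of 0.17 against -0.00092 over all tested genes. The general macrophage markers leaned the same way, with all 10 above 0 and a median of 0.21, although none of the 10 was called with edgeR, DESeq2 or limma-voom and 4 were higher at an unadjusted edgeR p below 0.05. Of these markers, *Csf1r* and *Mertk* are also in the microglia list. With duplicates removed, counts can saturate near 1 count per exonic base. *Ctss*, in the microglia list, averaged 0.97 and the macrophage marker *Lyz2* 0.88 counts per exonic base. Their raw counts were almost equal in all libraries, at 1303 to 1343 and 1153 to 1173. The part of saturation in these medians was not tested. All sEH-/- libraries lay above all wild-type libraries in 9 of the 42 and below in 3, beside 11.8% and 14.5% of all tested genes.

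*Cx3cr1*, the receptor for fractalkine, was the microglia gene with the largest rise. It had 76, 191 and 98 counts in sEH-/- cells against 22, 27 and 30 in wild-type cells. This was 24.8 ± 12.9 CPM (SD, n = 3) against 4.87 ± 0.50 CPM (SD, n = 3), a log2 difference of 2.34 (SE 0.37, adjusted p = 0.017 with edgeR). As for *P2ry12* and *P2ry13*, sEH-/- replicate 2 was the highest, but the wild-type libraries of *Cx3cr1* were close together. The call of *Cx3cr1* was lost without wild-type replicate 2 (adjusted p = 0.086) and without wild-type replicate 3 (adjusted p = 0.11). Its log2 fold change was 2.26 and 2.42 in these fits. Few genes of any kind were called there, 20 higher and 5 lower without replicate 2 and 4 and 2 without replicate 3. *Lpcat2*, a lysophospholipid acyltransferase gene, was called at 0.59 (SE 0.12, adjusted p = 0.033), a value at the fold threshold, and the call was lost in 6 of 14 other fits, among them those leaving out sEH-/- replicate 2, or either of wild-type replicates 2 and 3. Of the most abundant genes of the list, the 3 named next were not called. *Csf1r*, the M-CSF receptor, was at 0.24 (SE 0.12, adjusted p = 0.27), the checkpoint gene *Vsir* at 0.020 (SE 0.11, adjusted p = 0.93) and the sialic acid receptor gene *Cd33* at 0.35 (SE 0.090, adjusted p = 0.055). Within the fold threshold, 3 further genes had an adjusted p below 0.05 with edgeR and were named after their values were seen. *Rnase4*, a secreted ribonuclease gene, was at 0.46 (SE 0.092, adjusted p = 0.030), the interleukin-10 receptor gene *Il10ra* at 0.43 (SE 0.10, adjusted p = 0.049) and *Gas6*, a ligand of Axl and Mertk, at -0.49 (SE 0.085, adjusted p = 0.022).

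**Figure D4:**
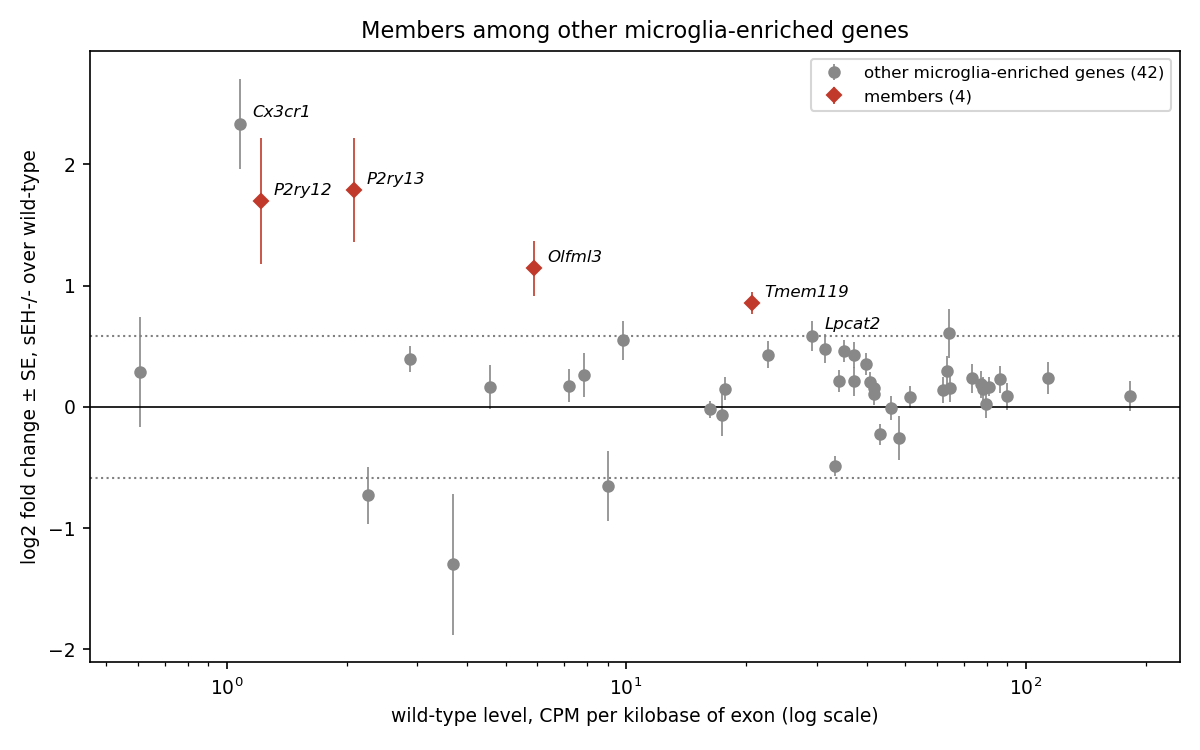
Log2 fold change (sEH-/- over wild-type, ± SE) against the wild-type level in CPM per kilobase of exon (log scale) for *Tmem119*, *Olfml3*, *P2ry13* and *P2ry12* (red) and the 42 other tested microglia-enriched genes (gray). The dotted lines mark 1.5-fold changes in either direction, and among the gray points *Cx3cr1*, at 2.34, stands apart while most lie between the dotted lines.

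The TGF-β pathway was described from a list of 24 ligands, activators, receptors, Smads and cofactors, of which 21 were tested. With edgeR none of them was called higher and 1 lower, as with DESeq2 and limma-voom, where edgeR called 1.51% and 1.10% of all tested genes. At an unadjusted edgeR p below 0.05 there were 3 higher and 2 lower, which is 14.3% and 9.52% beside 11.1% and 12.2% of all tested genes. The median log2 fold change was 0.051. All sEH-/- libraries lay above all wild-type libraries in 3 of the 21 and below in 3, beside 11.8% and 14.5% of all tested genes. *Itgb3*, the β subunit of an integrin that can activate latent TGF-β, fell in sEH-/- cells, with 263, 129 and 212 counts against 335, 955 and 560 in wild-type libraries (-1.47, SE 0.27, adjusted p = 0.025 with edgeR). The call was lost when sEH-/- replicate 2, or either of wild-type replicates 2 and 3, was left out. Wild-type replicate 2, the lowest wild-type library of *Tmem119*, *Olfml3*, *P2ry13* and *P2ry12*, was the highest for *Itgb3*. The receptor gene *Tgfbr1*, needed for TGF-β to reach the Smads, was at 0.21 (SE 0.093, adjusted p = 0.20), the integrin gene *Itgb5* at 0.19 (SE 0.11, adjusted p = 0.34), the protease gene *Furin* at 0.15 (SE 0.074, adjusted p = 0.27) and the Smad corepressor gene *Ski* at 0.23 (SE 0.079, adjusted p = 0.11).

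Of 16 textbook TGF-β target genes, all were tested, and 1 was called higher and none lower with edgeR, DESeq2 and limma-voom. Of all tested genes, edgeR called 1.51% higher and 1.10% lower. At an unadjusted edgeR p below 0.05, 5 target genes were higher and 3 lower, beside 11.1% and 12.2% of all tested genes. The median was 0.20. All sEH-/- libraries lay above all wild-type libraries in 4 of the 16 and below in 0, beside 11.8% and 14.5% of all tested genes. Within the fold threshold, *Pmepa1* was at 0.47 (SE 0.11, adjusted p = 0.041 with edgeR) and was named after its value was seen. *Thbs1*, which encodes thrombospondin 1, a matrix protein that can activate latent TGF-β, had 3945, 3247 and 3245 counts in sEH-/- cells against 1953, 1773 and 1504 in wild-type cells (1.08, SE 0.16, adjusted p = 0.014 with edgeR). The call was lost without wild-type replicate 2 (adjusted p = 0.074) or wild-type replicate 3 (adjusted p = 0.094). *Thbs1* averaged 0.43 counts per exonic base, and with counts corrected for saturation its log2 fold change was 1.42. *Skil*, a corepressor of Smads, was at 0.20 (SE 0.086, adjusted p = 0.19), the matrix gene *Tgfbi* at 0.20 (SE 0.13, adjusted p = 0.40) and the transcription factor gene *Bhlhe40* at -0.18 (SE 0.079, adjusted p = 0.20).

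Homeostatic microglia genes are known to fall when genes of disease-associated microglia rise, so a list of 29 of the latter was set beside them. With edgeR 2 of the 29 tested genes were called higher in sEH-/- cells and none lower, beside 1.51% and 1.10% of all tested genes. DESeq2 called 3 and none, limma-voom called 2 and none, and 6 were higher and none lower at an unadjusted edgeR p below 0.05, beside 11.1% and 12.2% of all tested genes. In all, 25 genes were above 0 and 4 below, with a median of 0.12, beside the median of 0.21 of the general macrophage markers. The called genes encode chemokines. *Ccl3* had 125, 131 and 67 counts in sEH-/- cells against 43, 51 and 47 in wild-type cells (1.29, SE 0.21, adjusted p = 0.018 with edgeR), and *Ccl4* had 128, 90 and 59 against 28, 45 and 40 (1.38, SE 0.22, adjusted p = 0.016). Both calls were lost without wild-type replicate 2 or wild-type replicate 3. *Gpnmb* (0.054, SE 0.11, adjusted p = 0.82), the lipoprotein lipase gene *Lpl* (0.017, SE 0.14, adjusted p = 0.96), the receptor kinase gene *Axl* (0.18, SE 0.11, adjusted p = 0.37) and the cathepsin gene *Ctsb* (0.089, SE 0.12, adjusted p = 0.71) were abundant and not called. The mean was 0.59 counts per exonic base for *Ctsb* and 0.51 for *Gpnmb*, where saturation can narrow differences. With counts corrected for saturation, their log2 fold changes were 0.086 and 0.036. The same correction moved other genes more, *Thbs1* from 1.08 to 1.42 and *Tmem119* from 0.86 to 0.93.

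Markers of other cells were summed for each library, since *P2ry12* is also a platelet gene. Of 10 megakaryocyte and platelet markers 6 had a row, none of them at 0 in all libraries. Their sum was 77.3 to 83.7 CPM in sEH-/- and 69.8 to 75.6 CPM in wild-type libraries. The genotypes did not overlap in this sum, and all sEH-/- libraries also lay above all wild-type libraries in 11.8% of single tested genes. *Pf4* made up most of the sum and was at 0.18 (SE 0.090, adjusted p = 0.26 with edgeR). The collagen receptor gene *Gp6*, with 24, 11 and 12 against 5, 4 and 5 counts, was called higher with edgeR (1.80, SE 0.41, adjusted p = 0.041) but not with DESeq2 or limma-voom. The integrin gene *Itga2b* (-1.09, SE 0.33, adjusted p = 0.084 with edgeR) and *Treml1* (-0.24, SE 0.30, adjusted p = 0.68) had the opposite sign. *Ppbp* had 50, 12 and 10 counts in sEH-/- against 11, 15 and 14 in wild-type libraries, and *Gp5* had 0 or 1 count per library. The sum of 9 stromal and endothelial markers was 69.6 CPM in wild-type replicate 2 and between 12.8 and 35.4 CPM in the other 5 libraries. None of the 7 tested markers of this sum was called with edgeR, DESeq2 or limma-voom. At an unadjusted edgeR p below 0.05, 1 of them was lower, beside 12.2% of all tested genes. The part of these cells in the differences was not tested. Without wild-type replicate 2 the log2 fold changes were 0.78 for *Tmem119*, 0.99 for *Olfml3*, 1.34 for *P2ry13* and 1.33 for *P2ry12*. The other marker lists were only partly covered. The 7 of 10 neutrophil markers with a row summed to 283 to 360 CPM in sEH-/- and 265 to 317 CPM in wild-type cells. *Mmp8* alone made up most of this sum, at 246 to 330 CPM, and *S100a8* was at 17.1 to 29.7 CPM. The neutrophil markers *S100a9*, *Elane*, *Camp*, *Ngp* and *Cxcr2* had 0 to 10 counts per library. The 7 of 10 dendritic cell markers summed to 28.1 to 60.1 and 44.2 to 60.7 CPM. The 3 of 10 mast cell and basophil markers summed to 7.26 to 11.1 and 4.18 to 10.5 CPM, and the 2 of 10 lymphocyte markers to at most 1.21 CPM. The genotypes overlapped in each of these sums.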

How the data were processed

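The 6 bulk RNA-seq libraries of M2c macrophages each came from a separate mouse. The p-values thus set a genotype difference against the spread between mice of a genotype, which is estimated with information shared across genes. The authors used Trimmomatic for trimming, STAR and the Ensembl annotation of mm10 for alignment and Picard for duplicate removal, left out multi-mapping, ribosomal and mitochondrial reads, and deposited raw counts per gene from featureCounts, taken over exons by strand and without reads that overlap several genes. The labels and the methods name different versions of these tools, different library kits and different RNA inputs.

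The counts were analyzed in R 4.3.3 with edgeR 4.0.16 (TMM, quasi-likelihood test, Benjamini-Hochberg adjustment over the 13785 genes that averaged above 5 counts). The study's methods name DESeq2, which was run as an alternative (DESeq2 1.42.0), as was limma-voom (limma 3.58.1). Each SE was obtained from the F statistic as log2 fold change/√F. Exon lengths came from GENCODE for the same build, in which 19286 of the 19309 gene identifiers were found, and promoters from RefSeq, which gave an entry for *P2ry12*, *P2ry13*, *Olfml3* and *Fcrls*. The scripts were tested on simulated counts. Libraries of a genotype differed by more than sampling noise.

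The genes described and all lists were chosen with earlier results of these data known. Named in the text were all 7 genes, *Ephx2*, the called genes of each list and its 4 most abundant genes, tested relatives, overlapping and adjacent genes, and the 3 genes nearest in profile to each gene with a mean of at least 20 counts. A gene that this rule names is not reported here. Alternatives were other normalizations, no filter, at least 10 counts in every library, a replicate block, no fold threshold and leaving out each library. Counts corrected for saturation at 1 count per exonic base and the use of principal transcript lengths were chosen after seeing the data.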

Additional observations from a re-analysis of the deposited data

How the results depend on the processing

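With each library left out in turn, the number of genes called higher ranged from 4 to 346 and lower from 2 to 312, beside 208 and 152 with all libraries. The lowest counts, 4 and 2, were found without wild-type replicate 3, followed by 20 and 5 without wild-type replicate 2 and 73 and 23 without sEH-/- replicate 2. The loss of a single gene's call without any of these 3 libraries is to be read beside these totals. Over all fits with a library left out, the microglia list had 0 to 4 genes called higher and 0 to 1 lower. The disease-associated microglia list had 0 to 3 higher, and the TGF-β lists together 0 to 2 higher and 0 to 1 lower. Apart from the replicate block, described next, 240 genes were called lower with no filter, and 1 microglia gene was called higher with no filter or with library sizes without TMM factors. Without a fold threshold 329 genes were called higher, the microglia list had 4 higher and 1 lower, and the TGF-β lists had 2 higher. The direction turned for *Lpl* without sEH-/- replicate 3 (-0.13, with 0.17 as the highest value over the libraries left out) and for *Gpr171* without sEH-/- replicate 2 (0.025, with -0.41 as the lowest). Values within their SE of 0 also changed sign, reaching -0.074 for *Vsir*, -0.013 for *Gpnmb*, 0.080 for *P2ry10b* and -0.050 for *Sall2* with a library left out. The cause of these changes was not tested.

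Replicate numbers were shared by the genotypes in the labels. The deviations of same-numbered libraries from their genotype means correlated at -0.14, -0.38 and -0.072 over 11486 genes, so these libraries did not vary together. With 3 libraries per genotype this cannot show whether the mice were paired, and the paper states that littermates were used. With the replicate block 149 genes were called higher and 85 lower, and the microglia genes called higher went from 2 to 1. The direction of *Tmem119*, *Olfml3*, *P2ry13* and *P2ry12* was the same in every fit. These genes were chosen on this comparison and their genotypes did not overlap, so nothing is read from the unchanged direction. The order of levels was the same with principal transcript lengths and without division by length. *P2ry12* could not be tested under the filter of 10 counts in every library. Depth limits *Fcrls* and *Gpr34*, for which only large differences could be detected.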
